A study of Mus musculus with 40 samples.

Results

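Atf4 and 9 further genes of the integrated stress response were followed through the hippocampus and frontal cortex of mice colonized with human fecal microbiota: Atf5, Ddit3, Ddit4, Asns, Trib3, Chac1, Sesn2, Psat1 and Phgdh. They are 10 of the 47643 genes listed for each brain region, and were selected on the Atf4 read counts of the hippocampus, which were lower in mice given stool from donors on a ketogenic diet (post-KD) than before it (pre-KD), as Atf4 itself plus established targets and partners of the ATF4 protein. The hippocampal values are therefore given as a description without a test. The tests rest on the frontal cortex, on the comparison between regions and on the relation of each target to Atf4 across libraries.

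RNA-seq was performed on germ-free wild-type Swiss Webster mice, 6 to 8 weeks old and female according to the methods, that were colonized with stool collected from 10 people with epilepsy before (pre-KD) or during (post-KD) their clinical diet. All recipients in both groups ate a control chow, so no mouse consumed a ketogenic diet, and every mouse carried a human donor's microbiota. Brains were collected on day 4 after colonization. Each of 20 cohorts, 10 pre-KD and 10 post-KD, gave 1 library per region, pooled from 6 mice, for 40 libraries in 4 groups of 10. A replicate number denotes 1 stool donor, so the spread between libraries includes that between donors, while differences among the pooled mice cannot be seen.

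The integrated stress response links several cellular stresses to translation. The kinases PERK, GCN2, HRI and PKR phosphorylate the initiation factor eIF2, which slows general protein synthesis while upstream reading frames in the Atf4 mRNA allow more ATF4 protein to be made. ATF4 then binds composite C/EBP-ATF elements and switches on genes for amino acid synthesis and transport, tRNA charging, redox balance and, through CHOP, cell death. Much of this control acts on translation, so the amount of Atf4 mRNA measured here is not a measure of ATF4 protein. Atf5 and Ddit3 encode transcription factors. Trib3, Ddit4 and Sesn2 encode feedback and growth regulators, and Chac1 encodes an enzyme of glutathione breakdown. Asns, Psat1 and Phgdh encode enzymes of asparagine and serine synthesis.

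The letters of the composite element were looked up in the RefSeq promoters of the mouse build GRCm38.p6, taken as 250 bases before to 50 bases after each gene's start. The motif searched was TGATGNAA, with its reverse complement TTNCATCA, on both strands. It was found in the promoters of 3 of the 10 genes, Chac1, Trib3 and Asns, against 4.51% of the 27025 genes with a promoter in the set. In the 4 lists of other pathway genes described further on it was found in 1 of 15 eIF2-related genes, 5 of 12 stress outputs, 5 of 15 amino acid genes and 5 of 9 tRNA synthetase genes with a promoter. A match of letters is a description of the window and says nothing about binding in these mice. The 3 matches are printed with the bases around them because Chac1, Trib3 and Asns gave 3 different pictures in the hippocampus. Each stretch is written 5′ to 3′ on the strand of its gene, and capitals mark the match.
Chac1: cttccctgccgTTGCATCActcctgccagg
Trib3: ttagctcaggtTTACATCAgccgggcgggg
Asns: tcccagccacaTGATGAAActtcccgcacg
Positions are those of the first capital, counted from the RefSeq start, which differs from the GENCODE start of the gene positions given further on. The Chac1 stretch lies at chr2:119351038-119351067 on the plus strand, with its first capital at position -193. The Trib3 stretch lies at chr2:152344028-152344057 on the minus strand, with its first capital at position 15, past the start. The Asns stretch lies at chr6:7693214-7693243 on the minus strand, with its first capital at position -23. No match was found in these windows for Atf4, Atf5, Ddit3, Ddit4, Sesn2, Psat1 or Phgdh.

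The hippocampal libraries held 1140756 to 1947416 counted reads and those of frontal cortex 1188447 to 2095352, and 1 gene, Gm42418, took 8.63% to 18.02% of them. Values are CPM, read counts scaled to the size of the library, with TMM factors over all 40 libraries. Expressed Y-linked genes gave at least 20 counts in 9 of 40 libraries and at most 4 in the others, against the female label. Both replicate numbers that carried such counts in all 4 groups, 9 and 10, were left out together as an alternative. Marker lists differed between the regions, as given beside the comparison of regions, and 0 of their 71 tested genes passed an adjusted p under 0.05 for post-KD against pre-KD in either region (edgeR; 3 in hippocampus and 6 in frontal cortex had an unadjusted p under 0.05).

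Atf4 (chr15:80255184-80257541, plus strand) was lower in hippocampus of post-KD recipients. Hippocampal levels in the pre-KD cohorts ran from 49.1 CPM through a median of 89.3 to 142.2, and in the post-KD cohorts from 30.5 through a median of 57.0 to 124.6. The groups overlapped, with 4 of 10 post-KD libraries below every pre-KD library and 1 post-KD library, replicate 10, well above the other 9. The pre-KD mean was 89.8 ± 27.2 CPM and the post-KD mean 59.4 ± 27.2 CPM (SD, n = 10 libraries each), and the fitted log2 fold change was -0.60 with a standard error of 0.27. Post-KD was lower in 8 of 10 donors, and over the 18 alternative fits the log2 fold change stayed between -0.88 and -0.50. The 2 higher donors were replicate 9 (49.1 CPM pre-KD, 55.0 CPM post-KD) and replicate 10 (87.0 CPM pre-KD, 124.6 CPM post-KD). These are the 2 replicate numbers with Y-linked counts in all 4 groups. Summed striatal markers moved the same way in these libraries, with medians of 155 CPM pre-KD and 103 CPM post-KD and overlapping ranges (79.5 to 296 and 32.6 to 209 CPM). All 6 tested striatal genes of 7 listed had a negative log2 fold change, with a median of -0.58, 1 at an unadjusted and 0 at an adjusted p under 0.05 in edgeR, and their part in the Atf4 difference was not tested. Fewer cells that express a gene and less RNA per cell cannot be told apart in such bulk tissue.

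In frontal cortex of the same cohorts, the Atf4 level did not differ detectably. Levels ran from 36.4 through a median of 89.3 to 185.4 CPM among pre-KD and from 67.9 through 93.5 to 121.5 CPM among post-KD libraries. The post-KD range lay wholly inside the pre-KD range. The log2 fold change was 0.06 (SE 0.19, edgeR quasi-likelihood test, p = 0.751, adjusted p = 0.998), with 5 donors higher and 5 lower post-KD, and it turned to -0.13 without the 2 replicate numbers with Y-linked counts. Whether the change in hippocampus differed from that in frontal cortex was not tested, because the hippocampal value was the reason for choosing the genes.

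**Figure D1:**
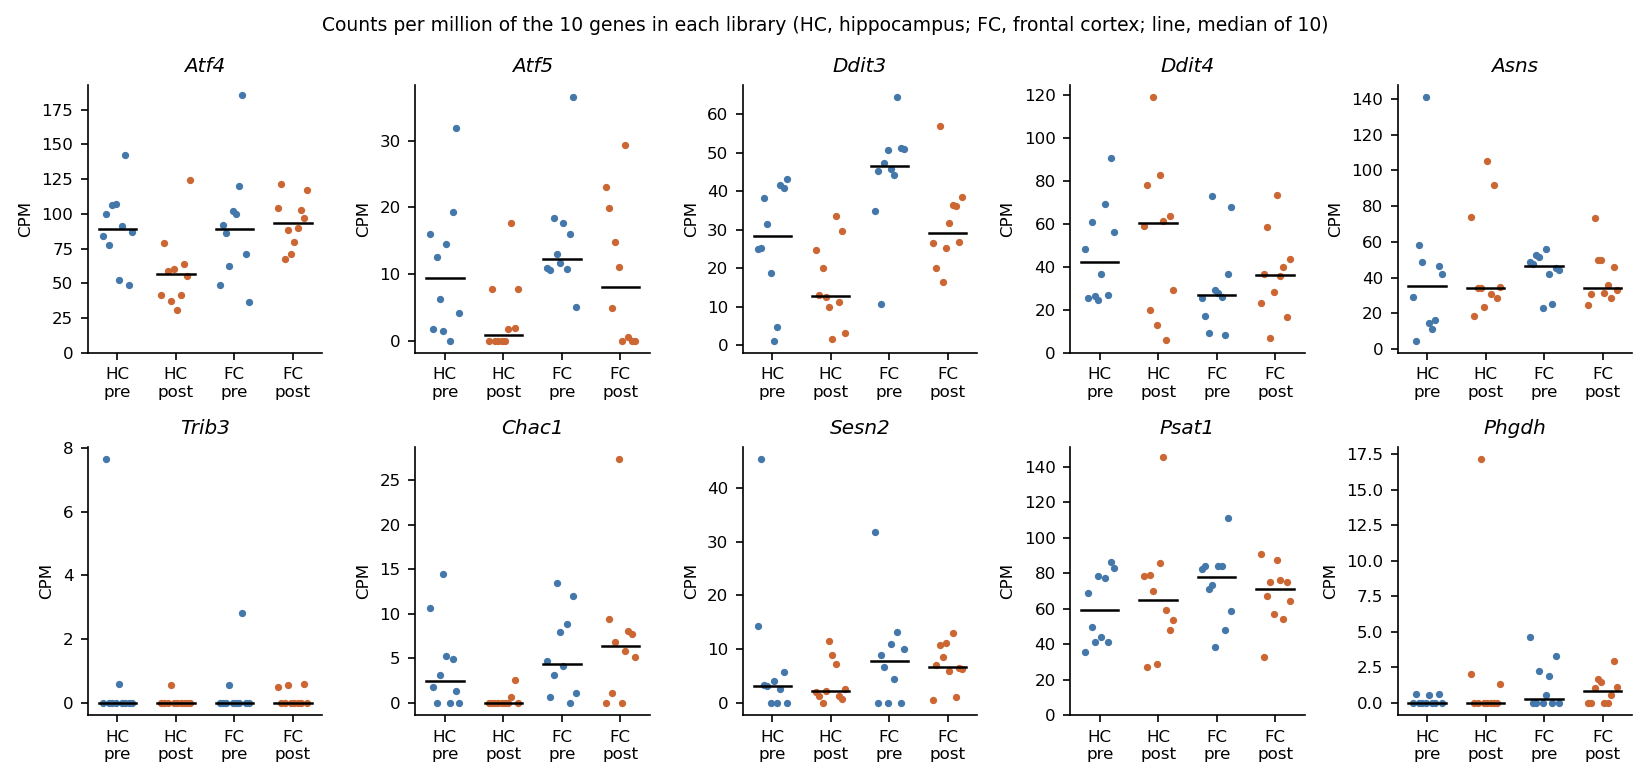
Level of each gene (CPM, one panel per gene, linear axes) in every library of the 4 groups, with blue points for pre-KD and orange points for post-KD libraries, a line for the median of 10, HC for hippocampus and FC for frontal cortex. Atf4 in post-KD hippocampus, with a median of 57.0 CPM, sits below the other 3 groups, whose medians lie between 89.3 and 93.5 CPM, and Trib3, Chac1 and Phgdh are at 0 in many libraries.

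Among the transcription factors, Ddit3 (chr10:127290774-127296288, plus strand) encodes CHOP, which promotes cell death under prolonged stress. Hippocampal Ddit3 ran from 1.16 through a median of 28.4 to 43.1 CPM among pre-KD and from 1.60 through 12.9 to 33.6 CPM among post-KD cohorts. The ranges overlapped almost fully while the post-KD median was the lower one, and 8 of 10 donors were lower post-KD. The log2 fold change was -0.75 (SE 0.56), between -1.06 and -0.53 over the alternatives. Ddit3 shares 10.9% of its exonic bases with overlapping gene models, including Mars on the opposite strand, and the strand setting of the counting is not given in the sources used here.

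In frontal cortex Ddit3 went the same way without passing a threshold. The pre-KD libraries ran from 10.6 through a median of 46.5 to 64.6 CPM and the post-KD libraries from 16.5 through 29.2 to 57.1 CPM. The ranges overlapped, but 9 of 10 donors were lower post-KD. The log2 fold change was -0.50 (SE 0.28, edgeR, p = 0.0771, adjusted p = 0.632), and the adjusted p lay between 0.174 and 1 over the alternatives. Without replicate 3, the donor with the lowest pre-KD and the highest post-KD level, the log2 fold change was -0.75 (edgeR, p = 0.00774, adjusted p = 0.174). That was the 1 donor higher post-KD, so its removal lowers p. Over all alternatives the log2 fold change lay between -0.75 and -0.42 and the unadjusted p of the fits between 0.00774 and 0.161.

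Atf5 (chr7:44812256-44816658, minus strand) encodes a factor closely related to ATF4 whose mRNA is also translated preferentially when eIF2 is phosphorylated. In hippocampus it ran from 0 through a median of 9.43 to 31.9 CPM among pre-KD and from 0 through 0.901 to 17.7 CPM among post-KD cohorts. It was at 0 in 1 library pre-KD and 5 libraries post-KD, and the fitted log2 fold change was -1.53 (SE 1.04), with 7 of 10 donors lower and a range of -2.63 to -1.11 over the alternatives, the lowest with the donor as a block. In frontal cortex the medians were 12.3 CPM pre-KD and 7.98 CPM post-KD, and the log2 fold change of -0.53 (SE 0.61) had an edgeR p of 0.389 and an adjusted p of 0.970. With limma-voom it was -1.84 (p = 0.0158, adjusted p = 0.771).

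Chac1 (chr2:119351229-119354381, plus strand), an enzyme that degrades glutathione and a target of ATF4 and CHOP, was barely detected in post-KD hippocampus. The pre-KD hippocampal libraries held 65 counts together, with a median of 2.45 and a highest level of 14.5 CPM, and the post-KD libraries held 5 counts together, with a median of 0 and a highest level of 2.59 CPM. Chac1 was at 0 in 8 of 10 post-KD and 3 of 10 pre-KD libraries. Scaled for depth, the pooled pre-KD count was 11.7 times the post-KD count (exact 95% interval 4.78 to 37.4, counting error only), and 6 donors were lower post-KD, 1 was higher and 3 were equal. The interval leaves out the spread between libraries. The fitted log2 fold change was -3.37 (SE 1.49), between -4.96 and -2.08 over the alternatives. In frontal cortex the cohorts held 94 counts pre-KD and 116 post-KD, with medians of 4.41 and 6.34 CPM, and the log2 fold change of 0.33 (SE 0.80) had an edgeR p of 0.679 and an adjusted p of 0.998.

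Trib3 (chr2:152337422-152344032, minus strand) encodes a pseudokinase that is induced by ATF4 and CHOP and restrains them in turn. Its hippocampal counts were 14 in pre-KD and 1 in post-KD cohorts, and 13 of the 14 came from replicate 2 alone. The ratio of pre-KD to post-KD counts of 12.6 (exact 95% interval 1.92 to 535, counting error only) thus described 1 library. The frontal cortex libraries held 4 and 3 counts, too few for the gene to enter the fit.

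Sesn2 (chr4:132492032-132510501, minus strand) encodes sestrin 2, a leucine sensor that restrains TORC1. Hippocampal levels ran from 0 through a median of 3.21 to 45.4 CPM among pre-KD and from 0 through 2.18 to 11.5 CPM among post-KD cohorts. The log2 fold change of -1.05 (SE 1.103) turned to 0.14 without replicate 2, whose pre-KD library held 58.3% of the group's counts. This is the same library that held most of the Trib3 counts. In frontal cortex the medians were 7.86 and 6.75 CPM, with a log2 fold change of -0.28 (SE 0.74, edgeR, p = 0.708, adjusted p = 0.998) that turned to 0.52 with the donor as a block, 0.58 with limma-voom and 0.37 without replicate 1.

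Ddit4 (chr10:59949669-59951834, minus strand) encodes REDD1, an inhibitor of TORC1 that also responds to hypoxia and glucocorticoids, and its fitted log2 fold change in post-KD hippocampus was positive. Hippocampal levels ran from 24.6 through a median of 42.2 to 90.6 CPM among pre-KD and from 5.89 through 60.2 to 119.1 CPM among post-KD cohorts. The post-KD libraries spread more widely on both sides. The log2 fold change was 0.20 (SE 0.35), with 4 donors higher and 6 lower, and turned to -0.08 without replicate 4 and to -0.09 with the donor as a block. In frontal cortex, medians of 26.8 CPM pre-KD and 36.3 CPM post-KD gave a log2 fold change of 0.17 (SE 0.33, edgeR, p = 0.604, adjusted p = 0.998).

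The amino acid enzymes had positive fitted log2 fold changes in post-KD hippocampus, the direction of which is unsettled for Asns. Asns, asparagine synthetase (chr6:7675169-7693254, minus strand), ran from 4.71 through a median of 35.4 to 141.2 CPM among pre-KD and from 18.5 through 34.2 to 105.0 CPM among post-KD hippocampal libraries, with 5 donors higher and 5 lower. The post-KD median was slightly the lower one, while the log2 fold change was 0.20 (SE 0.38) and lay between -0.10 and 0.73 over the alternatives. Psat1, which makes phosphoserine (chr19:15904678-15947337, minus strand), ran from 35.6 through a median of 59.3 to 86.1 CPM among pre-KD and from 26.8 through 64.7 to 145.4 CPM among post-KD hippocampal libraries, with a log2 fold change of 0.16 (SE 0.29) and 6 donors higher. Neither gene separated the groups.

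In frontal cortex the medians of Asns were 46.3 CPM pre-KD and 34.3 CPM post-KD, with a log2 fold change of -0.12 (SE 0.25, edgeR, p = 0.642, adjusted p = 0.998). Those of Psat1 were 77.6 and 71.2 CPM, with a log2 fold change of -0.11 (SE 0.20, edgeR, p = 0.582, adjusted p = 0.998). Phgdh, the first enzyme of serine synthesis (chr3:98313170-98339990, minus strand), gave 72 counts in 40 libraries, of which 30 came from replicate 4 of post-KD hippocampus. The hippocampal counts were 3 pre-KD and 35 post-KD, a ratio of 12.9 after scaling for depth (exact 95% interval 4.07 to 65.6, counting error only) that was carried by that library. In frontal cortex 19 and 15 counts gave a log2 fold change of -0.47 (SE 1.31, edgeR, p = 0.722, adjusted p = 0.998). Of the gene's 69-base windows, 38.7% also occur in other genes, so its values here, in the counts over the 10 genes and between regions are uncertain.

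Of the 10 genes, 4 had a positive and 6 a negative log2 fold change in hippocampus, with a median of -0.67, beside a median of -0.01 over the 17529 genes tested there. The values of Atf4, which chose the genes, and Ddit3 set that median, and nothing is read from it. Of all tested hippocampal genes, 10.1% had an unadjusted p under 0.05 (4.57% higher and 5.48% lower post-KD) and 0.0057% an adjusted p under 0.05. In frontal cortex, 0 of 9 tested genes passed either threshold in edgeR and in DESeq2. With limma-voom 1, Atf5, passed the unadjusted threshold, which 1071 genes in all passed by that method. In edgeR, 9.68% of 17873 frontal cortex genes had an unadjusted p under 0.05 (5.01% higher and 4.68% lower) and 0.0056% an adjusted p under 0.05. There, 3 log2 fold changes were positive and 6 negative, with a median of -0.12. With the donor as a block, the genes with an unadjusted p under 0.05 numbered 348 in place of 1762 in hippocampus and 548 in place of 1731 in frontal cortex. The 6 negative hippocampal values were those of Atf4, Atf5, Ddit3, Chac1, Trib3 and Sesn2, the last 2 of which rested on replicate 2, and the 4 positive ones those of Ddit4, Asns, Psat1 and Phgdh, the last of which rested on replicate 4.

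To ask whether the targets differ between the 2 regions, hippocampus and frontal cortex of the same cohort were compared over 20 cohorts. Of the 10 genes, 1 was lower in hippocampus at an adjusted p under 0.05, where 2.85% of 19422 tested genes passed and 1.98% were lower, and 3 at an unadjusted p under 0.05, where 8.12% were. The 3 were Ddit3, Chac1 and Atf4, the last with post-KD hippocampal values that chose the genes. In edgeR 0 were higher at either threshold, where 0.87% and 2.78% of all tested genes were, and 10.9% of all genes had an unadjusted p under 0.05 in either direction. The median log2 difference was -0.72 over the 10 genes and -0.17 over all genes tested. This comparison includes the post-KD hippocampal libraries that led to the choice of genes, so it was also made within pre-KD and within post-KD cohorts.

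Ddit3 was the gene that passed. Its level was lower in the hippocampus of 18 of 20 cohorts, with a log2 difference of -1.07 (SE 0.33, edgeR, p = 0.00119, adjusted p = 0.0435). The difference was of similar size within pre-KD cohorts (-0.94, 9 of 10 cohorts lower, adjusted p = 0.557) and within post-KD cohorts (-1.20, 9 of 10 lower, adjusted p = 0.469). The adjusted p passed in 7 of 18 alternatives and rose to 0.0531 without the gene filter and 0.0568 with RLE size factors. Leaving out replicate 2, 5, 6, 7, 8 or 10 also ended the call, with adjusted p of 0.0633, 0.0825, 0.271, 0.0807, 0.101 and 0.129, as did leaving out both replicate numbers with Y-linked counts (0.0977).

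As a description, the log2 difference of Atf4 itself was -0.35 (SE 0.17), with 14 of 20 cohorts lower in hippocampus. Within pre-KD cohorts the difference was 0.05, with 5 cohorts higher and 5 lower, and within post-KD cohorts it was -0.75 (SE 0.25), with 9 of 10 lower. The pooled value thus came from the post-KD cohorts, in which the hippocampal level had led to the choice of genes. The log2 difference of Chac1 was -2.65 (SE 1.07, edgeR, p = 0.0132, adjusted p = 0.238) and passed with DESeq2 (adjusted p = 0.0208). Within pre-KD cohorts it was -0.92, with 5 cohorts higher and 5 lower in hippocampus (edgeR, p = 0.507, adjusted p = 0.975). Within post-KD cohorts it was -4.73, with 0 higher and 8 lower (edgeR, p = 0.00546, adjusted p = 0.197). The pooled value of Chac1 thus also came mainly from the post-KD cohorts, whose hippocampal libraries held 5 Chac1 counts together.

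Atf5 was lower in hippocampus in 14 of 19 cohorts that differed, with a log2 difference of -1.37 (edgeR, p = 0.0628, adjusted p = 0.511). Ddit4 was the exception in direction, with a log2 difference of 0.52 (SE 0.27, edgeR, p = 0.0530, adjusted p = 0.473) and higher hippocampal levels in 13 of 20 cohorts. Psat1 (-0.21) and Asns (-0.25) were each within 1 standard error or little more of 0, with edgeR p of 0.276 and 0.336 and adjusted p of 0.775 and 0.802. The differences of Sesn2 (-1.15), Phgdh (-1.29) and Trib3 (-0.37) had edgeR p of 0.158, 0.299 and 0.673 and adjusted p of 0.696, 0.783 and 0.938.

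**Figure D2:**
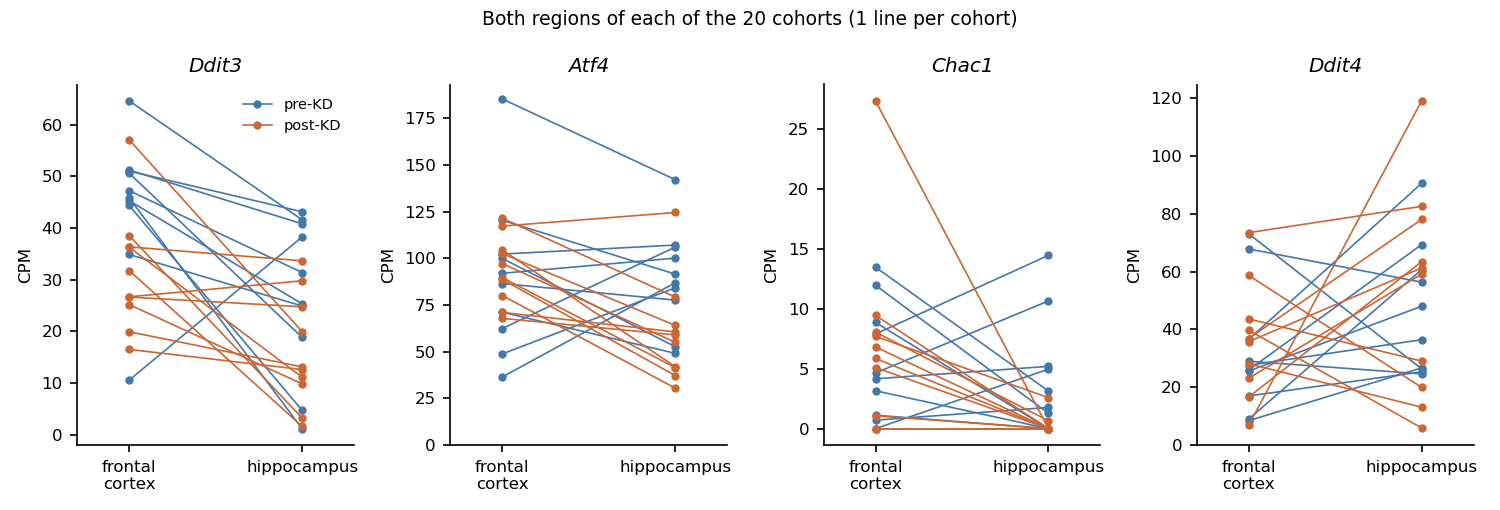
Level (CPM, linear axes) of Ddit3, Atf4, Chac1 and Ddit4 in frontal cortex and hippocampus, with 1 line joining the 2 libraries of each cohort, blue for pre-KD and orange for post-KD. The Ddit3 line goes down towards hippocampus in 18 of 20 cohorts, and the Atf4 line in 9 of 10 post-KD but 5 of 10 pre-KD cohorts.

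The dissections differed in other transcripts too. Markers of the striatum, summed, ran from 32.6 to 296 CPM in hippocampal and from 504 to 1094 CPM in frontal cortex libraries, and 6 of 6 tested striatal genes were lower in hippocampus at an adjusted p under 0.05. Choroid plexus markers ran from 496 to 4415 CPM in hippocampal and from 7.91 to 608 CPM in frontal cortex libraries, with 5 of 8 genes higher at an adjusted p under 0.05. Hippocampal markers ran from 754 to 1238 CPM in hippocampus and from 408 to 766 CPM in frontal cortex, with 5 of 6 genes higher. Of the other lists, 1 of 6 cortical genes was higher and 2 lower, 2 of 7 glucocorticoid response genes were higher, 2 of 6 neuronal, 1 of 8 astrocyte and 1 of 8 immediate early genes were lower, and 0 oligodendrocyte, microglia or blood genes passed an adjusted p under 0.05 in edgeR (4, 1 and 3 passed the unadjusted threshold). The part of these tissues in the regional difference of Ddit3 was not tested. Within hippocampus, choroid plexus markers overlapped between pre-KD (748 to 2591 CPM) and post-KD (496 to 4415 CPM).

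If targets followed the Atf4 mRNA from library to library, their levels would rise with it inside each condition. This was computed for 9 targets in 2 regions, 18 relations over 20 libraries each, after subtracting the mean of each condition from log2 CPM. None of the 18 had an adjusted permutation p under 0.05. Of the 5 targets with a negative fold change in post-KD hippocampus, Pearson's r with Atf4 there was 0.10 for Ddit3 (Spearman's rho -0.06, permutation p = 0.676 and 0.796), 0.13 for Chac1 (rho 0.24, p = 0.569 and 0.302) and 0.18 for Atf5 (rho 0.12, p = 0.448 and 0.627). For Ddit3 and Atf5 the sign differed between conditions, with r of 0.36 in pre-KD and -0.14 in post-KD libraries for Ddit3 and of -0.41 and 0.67 for Atf5 (10 libraries each, not tested). The pooled r was -0.01 for Trib3 (rho -0.20, permutation p = 0.947 and 0.304) and -0.21 for Sesn2 (rho -0.32, p = 0.359 and 0.170). In frontal cortex Ddit3, Chac1 and Atf5 had r of 0.02, -0.10 and 0.09 and Sesn2 of -0.24.

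The 3 relations largest in size were negative. Asns in frontal cortex had an r of -0.53 with Atf4 (rho -0.54, permutation p = 0.0140 and 0.0156, adjusted 0.249 and 0.140), and -0.51 without the 2 libraries farthest from the median Atf4. It was negative within pre-KD (-0.52) and within post-KD cohorts (-0.71). Ddit4 had an r of -0.49 in hippocampus (rho -0.60, permutation p = 0.0416 and 0.00799, adjusted 0.249 and 0.140), -0.42 without the 2 farthest libraries, and of -0.50 in frontal cortex (rho -0.36, p = 0.0294 and 0.136, adjusted 0.249 and 0.547), where it dropped to -0.22 without them. The relation of Ddit4 in frontal cortex therefore rested on those libraries. Psat1 in hippocampus had an r of -0.43 (rho -0.43, permutation p = 0.0818 and 0.0687, adjusted 0.368 and 0.412). The largest positive value was that of Trib3 in frontal cortex (0.48, rho 0.23, permutation p = 0.123 and 0.298, adjusted 0.444 and 0.547), which rested on 7 counts in 20 libraries and was -0.09 without the 2 farthest libraries. Points of 1 condition share no mice, but all share a sequencing table and differ in depth.

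**Figure D3:**
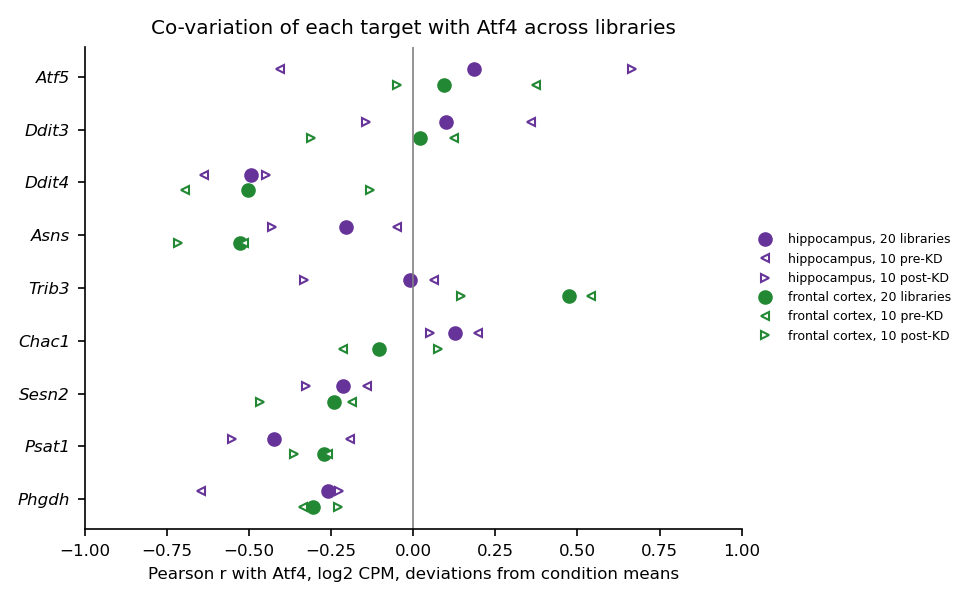
Pearson's r of each of 9 targets with Atf4 within condition, with filled circles over 20 libraries of a region and open triangles over the 10 libraries of 1 condition. Ddit4 lies at -0.49 and -0.50 and Asns in frontal cortex at -0.53, while Ddit3 lies at 0.10 and 0.02.

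Cohorts with more of a transcript in hippocampus did not clearly have more in frontal cortex. Over 20 cohorts and 10 genes, after removal of condition means, the r between regions was highest for Psat1 (0.42, rho 0.39, permutation p = 0.0707 and 0.0957, adjusted 0.459 and 0.479; 0.21 without the 2 farthest cohorts) and Atf4 (0.33, rho 0.40, p = 0.138 and 0.0845, adjusted 0.459 and 0.479; 0.13 without them). It was lowest for Asns (-0.35, rho -0.27, permutation p = 0.137 and 0.252, adjusted 0.459 and 0.840), and was -0.14 without the 2 farthest cohorts. None had an adjusted p under 0.05.

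The genes most like Atf4 over the 40 libraries were outside the pathway. Among 8156 genes averaging at least 20 counts, the 5 with the highest r after removal of region and condition means were mt-Tp, a mitochondrial tRNA (0.66), Swi5, a recombination factor (0.65), Apoe, the main brain apolipoprotein (0.65), Anxa6, an annexin (0.63), and Uchl1, an abundant neuronal deubiquitinase (0.62). Across all ranked genes the median r was 0.05, and 95% lay between -0.34 and 0.43. By the same measure Ddit3 ranked 3781 of 8156 (r 0.07), Asns 7748 (-0.27), Psat1 7990 (-0.36) and Ddit4 8136 (-0.50). These values describe 40 libraries that share regions, cohorts and depth, and carry no test.

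The wider pathway was read from 4 lists of 66 other genes: eIF2 with its kinases and regulators, other ATF4-linked transcription factors and stress outputs, other amino acid enzymes and transporters, and tRNA synthetases with the tRNA exporter Xpot. In hippocampus 62 entered the fit, of which 36 had a positive and 26 a negative log2 fold change post-KD, and 0 had an unadjusted p under 0.05, where 10.1% of all tested genes and 206 of the 8016 genes averaging at least 20 counts had one (44 of the 62 average that many). Medians were 0.06 for the eIF2 list, -0.07 for the stress outputs, 0.24 for the amino acid list, with 15 of 20 genes positive, and -0.11 for the synthetases, with 9 of 13 negative. As a description, the largest hippocampal log2 fold changes of genes averaging at least 20 counts were those of Eif2b3, a subunit of the eIF2 exchange factor (0.61, SE 0.59), Pck2, mitochondrial PEP carboxykinase (0.61, SE 0.74), Tars, threonyl-tRNA synthetase (-0.48, SE 0.50), and Nck1, an adaptor (0.48, SE 0.63). Each is no more than about its own standard error.

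In frontal cortex, 32 of the 64 tested list genes had a positive and 32 a negative log2 fold change, and 0 had an adjusted p under 0.05. An unadjusted p under 0.05 was found for 1, where 9.68% of all tested genes and 383 of the 8255 genes averaging at least 20 counts had one. The 1 was Yars, tyrosyl-tRNA synthetase, which ran from 7.75 through a median of 29.6 to 49.4 CPM pre-KD and from 29.6 through 41.7 to 68.6 CPM post-KD. Its log2 fold change was 0.55 (SE 0.28, edgeR, p = 0.0487, adjusted p = 0.508), with 8 of 10 donors higher. The heme-regulated kinase gene Eif2ak1 was 0.40 (SE 0.24) with 9 of 10 donors higher, at an edgeR p of 0.0974 and an adjusted p of 0.704. Eif4ebp1, an inhibitor of cap-dependent translation, was -1.69 (SE 0.87, edgeR, p = 0.0555, adjusted p = 0.542), and Atf3, a stress factor downstream of ATF4, was 2.37 (SE 1.40, edgeR, p = 0.0943, adjusted p = 0.694) from 5 counts pre-KD and 35 post-KD. Atf3 was at 0 in 8 of 10 post-KD libraries, and its value turned to -0.15 with the donor as a block and to -1.52 with the Y-linked covariate.

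In each list the 2 genes with the smallest frontal cortex p are named, and the remaining ones were Pck2, Aldh1l2, a mitochondrial folate enzyme, Ppp1r15a, the stress-induced subunit that directs eIF2 dephosphorylation, and Wars, tryptophanyl-tRNA synthetase. Their log2 fold changes were 0.98 for Pck2, 1.11 for Aldh1l2, -1.63 for Ppp1r15a and -0.49 for Wars. The edgeR p of these 4 ran from 0.0877 to 0.267 and the adjusted p from 0.674 to 0.933.

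Between regions, 24 of 64 list genes were positive and 40 negative, 2 were higher and 4 lower in hippocampus at an unadjusted p under 0.05, where 2.78% of all tested genes were higher and 8.12% lower, and 1 was higher at an adjusted p under 0.05, where 0.87% of all genes were. The 2 higher genes were Slc7a11, the light chain of the cystine exchanger xCT (0.82, edgeR p = 0.0288, adjusted p = 0.362), named after its values were seen, and Slc3a2. Slc3a2, which passed the adjusted threshold, encodes the heavy chain shared by LAT1 and xCT. Its level ran from 51.5 to 205 CPM in pre-KD and from 73.8 to 201 CPM in post-KD hippocampus, and from 45.8 to 86.6 CPM and from 49.0 to 109.6 CPM in frontal cortex. Hippocampus was higher in 18 of 20 cohorts, by 0.64 on the log2 scale (SE 0.16, edgeR, adjusted p = 0.00318), and the call held in 17 of 18 alternatives, the exception being the pre-KD cohorts alone (adjusted p = 0.581).

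Slc6a9, the glycine transporter GLYT1, had a log2 difference of -0.93 (SE 0.37, edgeR, p = 0.0120, adjusted p = 0.224), with 15 of 20 cohorts lower in hippocampus. Nars, asparaginyl-tRNA synthetase (-0.30, edgeR p = 0.0153, adjusted p = 0.258), Eif2s2, the beta subunit of eIF2 (-0.19, edgeR p = 0.0412, adjusted p = 0.424), and Sqstm1, the autophagy receptor p62 (-0.22, edgeR p = 0.0439, adjusted p = 0.435), also had an unadjusted p under 0.05 and no adjusted one. The log2 differences of Xpot (0.54), Ppp1r15a (0.996) and Gadd45a, a growth arrest gene (-2.01), had adjusted edgeR p between 0.652 and 0.838.

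**Figure D4:**
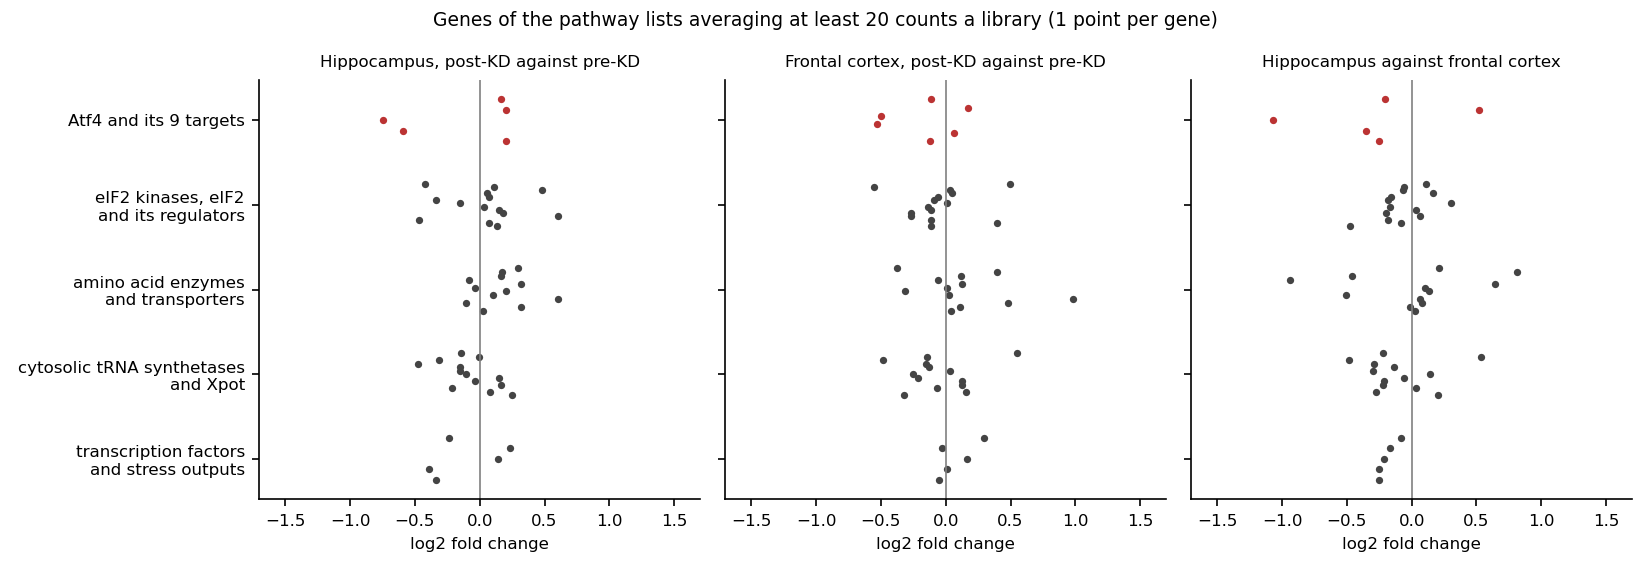
Log2 fold change of the genes averaging at least 20 counts a library, 1 point per gene, in the 4 pathway lists (black) and among Atf4 and its targets (red), for post-KD against pre-KD in hippocampus and in frontal cortex and for hippocampus against frontal cortex. The list genes scatter on both sides of 0 in each comparison, with Eif2b3 and Pck2 (0.61) and Tars (-0.48) at the ends in hippocampus, Pck2 (0.98) highest in frontal cortex and Slc6a9 (-0.93) lowest between regions.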

How the data were processed

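Total RNA from hippocampus and frontal cortex was sequenced as 69-bp paired reads. According to the methods the authors aligned reads to mm10 with STAR 2.5.2a and counted them with HTSeq 0.6.0, and deposited unnormalized counts per Ensembl gene, in 1 table per region with 20 libraries each. The library kit is named in different ways in the methods, and the annotation release and strand setting are not given in the sources used here. Of 47643 genes, 47224 were matched to GENCODE M21 for symbols and positions. No 2 libraries of a group were identical (0 of 180 pairs).

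Groups were taken from the sample labels. Genes with at least 10 summed counts entered quasi-likelihood tests of edgeR 4.0.16 with TMM factors (R 4.3.3) for post-KD against pre-KD in each region, and for hippocampus against frontal cortex with a term for each of 20 cohorts, with Benjamini-Hochberg adjustment over all genes of a fit. Correlations took log2 CPM, prior count 2, and permutation tests with 100000 resamples, 2-sided (scipy 1.17.1, numpy 2.4.6, pandas 2.3.3, Python 3.11.15, matplotlib 3.10.9). The fits were tested on simulated counts: of all changed genes, 45 of 191 passed an adjusted p under 0.05 in the hippocampus comparison, 65 of 189 in frontal cortex and 60 of 193 between regions, and of those averaging at least 50 counts, 42 of 61, 54 of 60 and 41 of 49. Of unchanged genes, 8.38%, 7.34% and 3.3% had an unadjusted p under 0.05, and 5, 18 and 0 such genes passed the adjusted one.

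The replicate number is the stool donor and pairs pre-KD and post-KD cohorts by design. After removal of condition means, both libraries of a donor correlated across genes by -0.0279 to 0.0299 in hippocampus and by -0.0564 to 0.0317 in frontal cortex, and 0 of 10 pairs in either region exceeded 0.1. By the same measure, hippocampus and frontal cortex of 1 cohort correlated by only -0.0231 to 0.202, with 1 of 20 pairs above 0.1. Low values of this measure therefore cannot show that the pairs of a donor are unrelated. The study's methods state paired tests for other readouts but no donor term for the DESeq2 fit of the RNA-seq, and the fit without the block was kept.

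The genes, the 4 pathway lists and the 11 marker lists were chosen with earlier results of these data known. The text names the 10 genes. From each pathway list it names the 2 genes with the smallest p in frontal cortex and the 2 with the smallest p between regions, and from all lists together the 4 with the largest absolute hippocampal fold change among those averaging at least 20 counts. It also names any list gene passing an adjusted p under 0.05 between conditions, of which there were 0, and the 5 genes most like Atf4. The list genes in the text fall under this rule except Slc7a11, which was named after its values were seen.

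Alternatives were DESeq2 1.42.0, no gene filter, filterByExpr, RLE size factors, the replicate block, a Y-linked covariate, limma-voom (limma 3.58.1) with quality weights and leaving out each replicate number. Added after seeing the data were the fit without the 2 replicate numbers with Y-linked counts in all groups and, between regions, each condition alone. Intervals on pooled counts are exact and cover counting error only.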

Additional observations from a re-analysis of the deposited data

Results flagged for a closer look

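In 14 of the 40 groups of 10 libraries that the 10 genes and 4 groups give, 1 library stood apart from the other 9 by Dixon's criterion, and each was the highest library of its group. Chance meets the criterion in about 1 of 20 groups of normally distributed values, a rate that does not hold for skewed counts near 0 such as those of Trib3, Chac1 and Phgdh. In the 4 groups of library totals, 0 stood apart. In hippocampus these were Atf4 in post-KD replicate 10 (124.6 CPM, next 79.3), Atf5 in post-KD replicate 8 (17.7 CPM, next 7.75), Asns in pre-KD replicate 5 (141.2 CPM, next 58.0) and Psat1 in post-KD replicate 7 (145.4 CPM, next 85.8). Trib3 in pre-KD replicate 2 (7.66 CPM, next 0.578) and Sesn2 in the same library (45.4 CPM, next 14.2) stood apart together. Trib3 in post-KD replicate 4 (0.573 CPM, next 0) was 1 read, Chac1 in post-KD replicate 9 (2.59 CPM, next 0.654) was 4 reads, and Phgdh in post-KD replicate 4 reached 17.2 CPM (next 2.06).

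In frontal cortex the libraries were Atf5 in pre-KD replicate 9 (36.6 CPM, next 18.5), Asns in post-KD replicate 3 (73.2 CPM, next 50.05), Trib3 in pre-KD replicate 8 (2.81 CPM, next 0.562), Chac1 in post-KD replicate 5 (27.4 CPM, next 9.46) and Sesn2 in pre-KD replicate 1 (31.8 CPM, next 13.1). The cause of these high libraries was not tested.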

How the results depend on the processing

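For post-KD against pre-KD, the 1762 hippocampal genes with an unadjusted p under 0.05 became 599 with DESeq2, 2931 without a filter, 221 with filterByExpr, 348 with the replicate block and 962 with limma-voom, and the 1 with an adjusted p under 0.05 became 0, 1291, 0 and 0 with the first 4 of these and 0 to 1 on leaving out a replicate (0 without replicate 4 or 9). The 1731 frontal cortex genes became 825 with DESeq2, 3035 without a filter, 407 with filterByExpr, 548 with the replicate block and 1071 with limma-voom, and the 1 adjusted call became 2 with DESeq2, 3 with the block and 3 with limma-voom. The pathway lists' 1 frontal cortex gene became 2 without a filter, 2 with the Y-linked covariate, 3 with limma-voom and 0 to 1 on leaving out a replicate (0 without replicate 2, 5, 7 or 8), and the 0 of the 10 genes became 1 with limma-voom and 0 to 1 on leaving out a replicate (1 without replicate 3). Frontal cortex log2 fold changes turned with the block for Chac1 (-0.011), Sesn2 (0.52), Phgdh (0.16), Aldh1l2 (-0.10) and Atf3 (-0.15), with limma-voom for Sesn2 (0.58) and Phgdh (0.051), with the Y-linked covariate for Atf3 (-1.52) and without the 2 replicate numbers with Y-linked counts for Atf4 (-0.13). On leaving out a replicate they ran from -0.071 to 0.21 for Atf4, -0.52 to 0.37 for Sesn2, -0.71 to 0.15 for Phgdh, -0.042 to 0.52 for Ddit4 and -0.13 to 0.58 for Chac1. Between regions, the 2117 genes with an unadjusted p under 0.05 became 3475 with no replicate block, 1208 in pre-KD and 1401 in post-KD cohorts alone, and the 554 adjusted calls became 1935 with no block, 1033 with DESeq2, 193 in pre-KD and 251 in post-KD cohorts alone. Of the 10 genes, the 1 adjusted call became 2 with DESeq2, 0 without a filter, with RLE size factors, in either condition alone and without the 2 replicate numbers, and 0 to 1 on leaving out a replicate, and the 3 unadjusted became 1 in pre-KD cohorts alone and 2 to 5 on leaving out a replicate. The lists' 1 adjusted call became 2 with DESeq2 and 0 in pre-KD cohorts alone, and their 6 unadjusted became 2 in either condition alone and 3 to 6 on leaving out a replicate. Regional log2 differences turned with no block for Asns (0.078) and Trib3 (0.23), in pre-KD cohorts alone for Atf4 (0.049) and Trib3 (0.10), and in post-KD cohorts alone for Asns (0.057). The r with Atf4 turned with total counts for Trib3 in hippocampus (0.021) and Ddit3 in frontal cortex (-0.051), and without the 2 farthest libraries for Ddit3 (-0.18) and Trib3 (0.031) in hippocampus and Atf5 (-0.052), Ddit3 (-0.082) and Trib3 (-0.093) in frontal cortex. The r between regions turned for Sesn2 with a prior count of 0.5 (-0.017) or total counts (-0.0026), and for Trib3 without the 2 farthest cohorts (0.23). The causes were not tested, other than that a fit without a filter holds more genes and one on fewer cohorts fewer libraries. In frontal cortex, 0 of the 9 tested genes of the 10 had an adjusted p under 0.05 with or without the replicate block, so it had no call to change. With 0 to 77 counts per library, Atf5, Trib3, Chac1, Sesn2 and Phgdh allow no firm statement on small changes.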
